A study of Mus musculus with 14 samples.

Results

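The transcripts described here are those of 36 genes that p53 is known to activate by binding near them, drawn from cell cycle arrest, apoptosis, DNA repair and metabolism. The members were listed by name from established targets of p53. The rule used no measured value, but the list was drawn up with earlier results of these data known. All 36 were found among the 30503 genes of the count table. Their levels were read by bulk RNA-seq in 14 clones cultured from mouse femurs, each grown from a single tdTomato+ skeletal cell of the bone marrow. The 5 Fgfr3-WT (P23) clones were of the genotype Fgfr3-creER; R26R(tdTomato/+), isolated at postnatal day 23 and at passage 8. The 5 Fgfr3-p53 cKO (P28) clones were of the genotype Fgfr3-creER; Trp53fl/fl; R26R(tdTomato/+), isolated at postnatal day 28 and also at passage 8, and the 4 Fgfr3-p53 cKO (P4M) clones were of the same genotype, isolated at 4 months and at passage 6 to 8. All mice carried Fgfr3-creER, in which a tamoxifen-inducible Cre is expressed where Fgfr3 is, and R26R(tdTomato/+), the reporter that Cre switches on, and all had received tamoxifen at postnatal day 21, the controls included. Clones of a group were treated as replicates, although the study counts these libraries as clones in one place and as mice in another, so that the p values measure the spread between clones, whether or not each came from its own mouse.

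p53 is a transcription factor held at a low level in resting cells by Mdm2, the ubiquitin ligase that marks it for degradation and is itself a target. Upon DNA damage or other stress p53 is stabilized, and its tetramer binds response elements made of a pair of half-sites of 10 bases each. Target genes then halt the cycle, start apoptosis through death receptors or the mitochondria, repair DNA and adjust metabolism, and many of them also carry a basal level of transcription that rests on p53 in unstressed, cultured cells. In bone, loss of Trp53 in skeletal cells is a well-known route to osteosarcoma.

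To show what such an element looks like in these genes, the promoter windows of RefSeq (GRCm38.p6, 250 bases before to 50 after each start site) were searched for the p53 consensus of 20 bases, in which each half-site is 3 purines, C, A or T, A or T, G and 3 pyrimidines, with no spacer. The consensus is its own reverse complement, so that a match on either strand is found, and the C and G of each half-site were required. Of the 36 members, 28 had a window. At most 1 mismatch was found in 2 of these 28, Ccng1 and Rps27l, and in 22 of all 27025 genes with a window (0.0814%). At most 3 mismatches were found in 5 of the 28, with Aen, Bbc3 and Sesn1 in addition, and in 441 of all genes (1.63%). The best matches are shown with the element in capitals and, for Ccng1 and Rps27l, 20 bases on either side, since they are the closest to the consensus. A match is a description of the letters, and elements outside these windows were not searched.
Ccng1, chr11:40755442-40755501, minus strand: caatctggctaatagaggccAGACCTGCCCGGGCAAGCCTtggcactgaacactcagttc
Rps27l, chr9:66946276-66946335, plus strand: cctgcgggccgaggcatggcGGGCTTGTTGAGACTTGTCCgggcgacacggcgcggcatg
Bbc3, chr7:16309486-16309505, plus strand: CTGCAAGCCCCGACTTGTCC
Sesn1, chr10:41887266-41887285, plus strand: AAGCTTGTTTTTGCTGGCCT
Aen, chr7:78895937-78895956, plus strand: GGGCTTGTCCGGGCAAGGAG

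By GENCODE M21 (mm10), the stretch of Ccng1 lies outside annotated transcripts, and its element starts 195 bases before the RefSeq start site. The Rps27l element starts 117 bases before a RefSeq start site and lies in an intron of 3 annotated transcripts of the gene. That of Bbc3 starts 97 bases and that of Sesn1 173 bases before a start site, each in an intron of 1 longer transcript. The Aen element starts 121 bases before 1 RefSeq start site and 10 bases after another, in the first exon of 4 transcripts.

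Trp53 itself stood at 55.4, 49.9, 68.2, 50.4 and 51.1 CPM (read counts scaled to the TMM-adjusted library size) in the Fgfr3-WT (P23) clones. It stood at 2.47, 2.84, 2.37, 2.48 and 2.18 CPM in the Fgfr3-p53 cKO (P28) clones and at 2.08, 2.37, 1.72 and 2.22 CPM in the Fgfr3-p53 cKO (P4M) clones, so that each cKO clone lay far below each Fgfr3-WT clone, the direction that the labels give. Total counts lay between 25688946 and 38958693 in the Fgfr3-WT clones and between 37606033 and 52857424 in the cKO clones. The sample names of all Fgfr3-WT clones carry the number 1303 and those of all cKO clones 2963. What the numbers stand for is not stated, so that anything that goes with them and genotype cannot be told apart. Age at isolation also differed between the Fgfr3-WT clones and each cKO group, so that age and genotype cannot be told apart either. The paper reports that cKO clones grew faster and survived passaging more often than control clones. Time in culture and survival of passaging thus went with genotype as well. The part of age, culture time and survival in the differences below was not tested. The sum of 8 skeletal stromal markers was 415 to 6356 CPM in the Fgfr3-WT, 27174 to 45524 in the P28 and 17814 to 84444 in the P4M clones, that of 4 blood markers in the table was at most 1.57 CPM in any clone, and that of 4 endothelial markers 0.0809 to 0.740 CPM in the Fgfr3-WT, 0.41 to 4.49 in the P28 and 2.73 to 12.8 in the P4M clones. Among the latter, Cdh5 was at 0 in every clone, whereas Kdr, the VEGF receptor, was at most 0.569 CPM in the Fgfr3-WT clones and rose to 0.307 to 4.11 CPM in P28 (log2 fold change 3.61, adjusted p = 0.019) and 2.59 to 12.6 CPM in P4M (5.56, adjusted p = 0.00224). The sum of 5 osteoblast markers was 40.8 to 308, 103 to 2840 and 1557 to 3693 CPM in the 3 groups, and that of 5 reticular and adipocyte markers 8.24 to 304, 408 to 543 and 140.01 to 518 CPM. The sum of 5 chondrocyte markers was 742 to 22895, 170.3 to 1324 and 23.0 to 54.4 CPM in the 3 groups, and that of 5 proliferation markers 36.1 to 158, 237 to 746 and 378 to 790.3 CPM. The stromal and proliferation sums did not overlap between genotypes, and the osteoblast, reticular and adipocyte, endothelial and chondrocyte sums moved with at least 1 cKO group. The stromal sums of the cKO clones were mostly Col1a1 and Col1a2. Of the stromal markers only Col1a1 was called higher, at log2 fold changes of 6.22 in P28 and 6.72 in P4M. Fgfr3 fell in both, at -2.22 and -2.47, and Thy1 fell in P4M, at -7.59. Prrx1, Pdgfra, Pdgfrb, Col1a2 and Col3a1 were called in neither. The reticular and adipocyte sums of the cKO clones were mostly Cxcl12, at 0 to 222, 317 to 520 and 100 to 376 CPM in the 3 groups. It was not called in P28 (log2 fold change 2.99, adjusted p = 0.121) or in P4M (1.92, unadjusted p = 0.209). The part of these marker levels in the results below was not tested. In bulk samples, fewer cells of a type and less RNA per cell cannot be told apart.

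To determine how the p53-activated genes differed between genotypes, all 36 were tested, each of them having passed the filter on low counts, in an edgeR quasi-likelihood model of all 14 clones with Benjamini-Hochberg adjustment over 17358 genes at an FDR of 0.05. Log2 fold changes are given ± SE. In the Fgfr3-p53 cKO (P28) clones, 22 of the 36 members fell against the Fgfr3-WT (P23) clones, whereas 19.7% of all genes tested did. Only 2 members, Plk2 and Plk3, rose, whereas 19.2% of all genes did, and 12 were not called. In the Fgfr3-p53 cKO (P4M) clones, 22 members fell against a background of 23.6% of all genes, 1 member, Plk3, rose against a background of 22.3%, and 13 were not called. The median log2 fold change over the 36 members was -1.25 in P28 and -1.31 in P4M, whereas it was -0.02 and -0.06 over all genes tested. Both comparisons share the Fgfr3-WT clones, so that they are not independent of each other. The same 19 members fell in both comparisons with Fgfr3-WT. A further 3 were called lower in P28 but not in P4M (Pmaip1, Rrm2b and Pltp) and 3 in P4M but not in P28 (Tnfrsf10b, Apaf1 and Rap2b). The P4M and P28 clones were also compared directly, where 3 members (Plk2, Tnfrsf10b and Apaf1) were lower in P4M against a background of 3.88% and 0 were higher against a background of 3.34%. Of the 36 members, 7 had an unadjusted p under 0.05 in this direct comparison. The share of all genes under that threshold was not counted, so that this number has no background here. With DESeq2 in place of edgeR, 3 members were lower and 0 higher in the same comparison, where 1578 and 1236 of 19854 genes were.

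**Figure D1:**
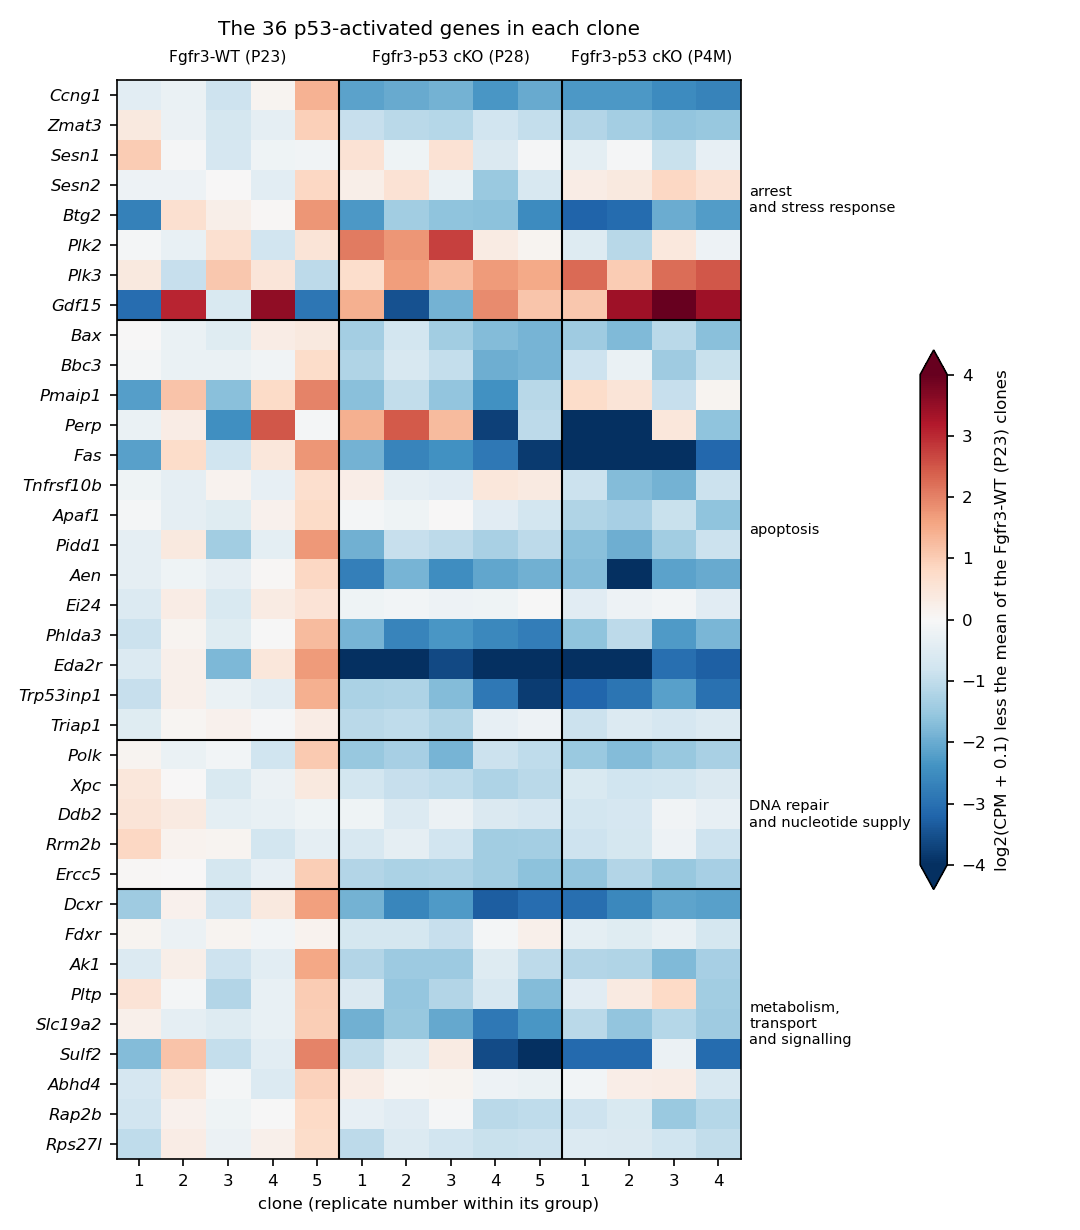
Heat map of the 36 p53-activated genes (rows, grouped by role) in the 14 clones (columns). Colour gives log2(CPM + 0.1) less the mean of the 5 Fgfr3-WT (P23) clones, with the scale ending at 4 in each direction. Most rows are blue throughout the 9 cKO clones, Plk3 is red in all of them, and clone 5 of the Fgfr3-WT group is the reddest of its group.

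The heat map by clone shows the shift in each library. For 11 of the 36 members each of the 9 cKO clones lay below each of the 5 Fgfr3-WT clones, whereas this was so for 8.38% of all genes tested. These were Ccng1, Zmat3, Bax, Aen, Phlda3, Eda2r, Trp53inp1, Polk, Ercc5, Dcxr and Slc19a2. No member had each cKO clone above each Fgfr3-WT clone.

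The level of the members in each clone was described as the median over the 36 genes of log2 CPM less the mean of the Fgfr3-WT clones, with a Fgfr3-WT clone set against the other 4. It was -0.38, 0.12, -0.61, -0.17 and 1.03 in Fgfr3-WT clones 1 to 5. In the P28 clones it was -1.001, -0.93, -1.10, -1.27 and -1.05, and in the P4M clones -0.97, -1.15, -1.001 and -1.22. The 9 cKO clones lay within a narrow band below all of the Fgfr3-WT clones, while the Fgfr3-WT clones were widely apart. Setting each Fgfr3-WT clone against only the other 4 widens their spread somewhat compared with that of the cKO clones. Over all genes tested the same median lay between -0.02 and 0.06 in each clone.

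**Figure D2:**
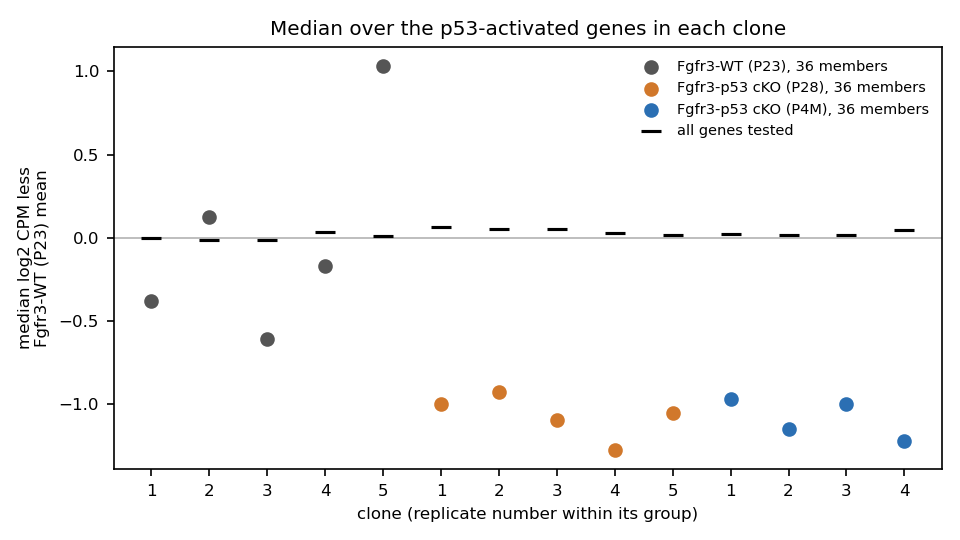
Median over the 36 p53-activated genes of log2 CPM less the Fgfr3-WT (P23) mean in each clone (points, coloured by group), and the same over all genes tested (dashes). The 9 cKO clones lie between -1.27 and -0.93, the Fgfr3-WT clones between -0.61 and 1.03, and the dashes near 0.

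Fgfr3-WT clone 5 stood apart in these genes. It had the highest value of the 5 Fgfr3-WT clones for 28 of the 36 members, whereas it was the highest for 20.5% of all genes tested. Clones 3 and 1 were the lowest for 15 and 13 members, against 16.5% and 29.6% of all genes. Without clone 5, 18 members fell in P28 and 18 in P4M, whereas 3388 and 3952 of 17423 genes did. The members no longer called lower without it were Pmaip1, Pidd1, Aen and Pltp in P28 and Bbc3, Aen, Triap1 and Rps27l in P4M, all still negative. The rise of Plk3 in P28 was no longer called either. The SD of log2 CPM between clones had a median over the members of 0.66 in Fgfr3-WT, 0.45 in P28 and 0.40 in P4M, whereas over all genes it was 0.51, 0.33 and 0.31. Clone 5 also had Col1a2, a fibrillar collagen of stromal cells, at 4354 CPM, where the other Fgfr3-WT clones had at most 0.842 CPM, and whether the 2 features are linked was not tested.

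**Figure D3:**
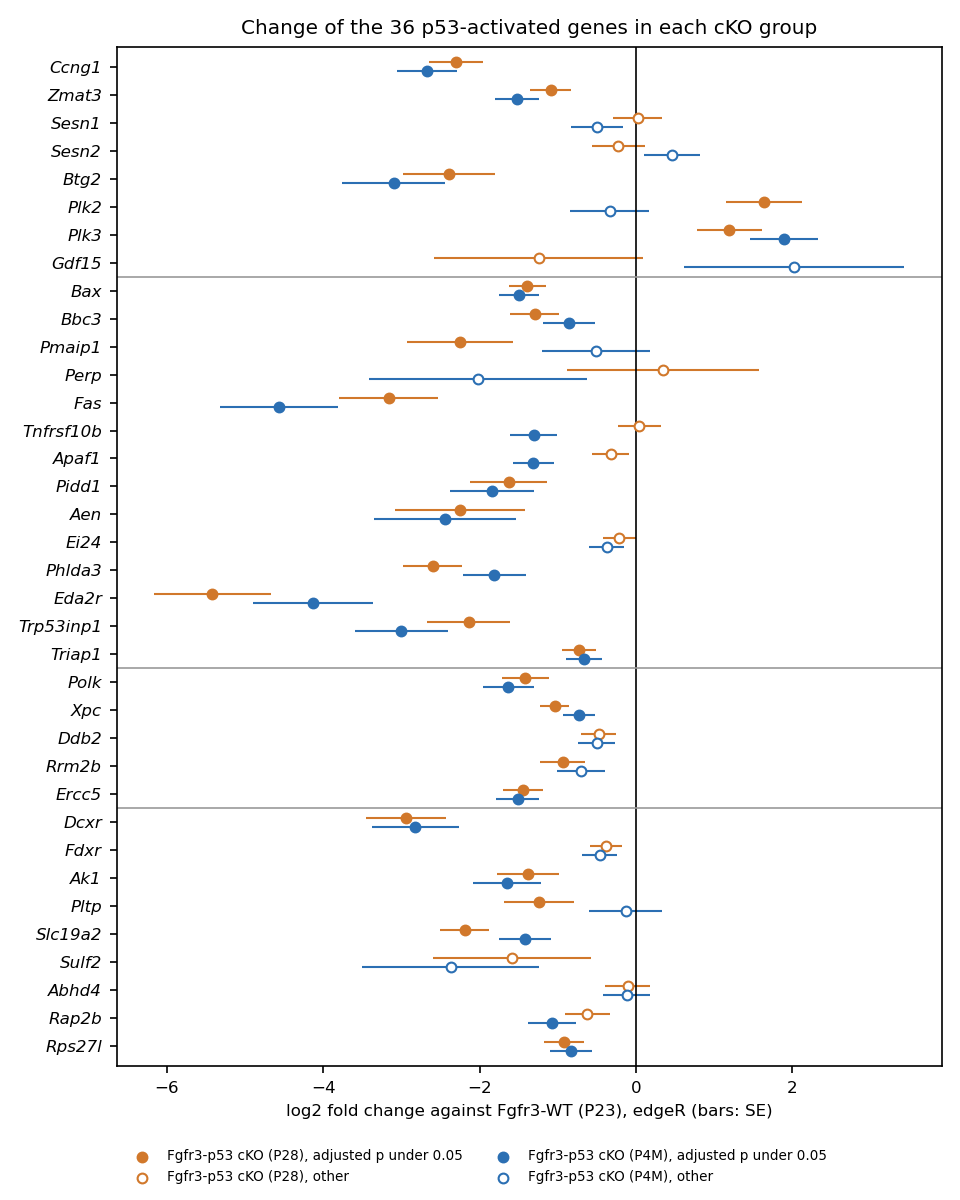
Log2 fold change of each p53-activated gene against Fgfr3-WT (P23) in the P28 (orange) and P4M (blue) Fgfr3-p53 cKO clones, with SE as bars, grouped by role. Filled points have an adjusted p under 0.05. Eda2r has the lowest value of P28 (-5.42) and Fas that of P4M (-4.57), and only Plk2 and Plk3 have filled points above 0.

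Of the 8 genes of arrest and stress response, 3 fell in both cKO groups (Ccng1, Zmat3 and Btg2), 2 rose in at least 1 of them (Plk2 and Plk3) and 3 were not called (Sesn1, Sesn2 and Gdf15). The median log2 fold change of the group was -0.66 in P28 and -0.42 in P4M. Ccng1 encodes cyclin G1, an atypical cyclin that recruits a phosphatase to Mdm2. It stood at 218, 244, 164, 315 and 758 CPM in the Fgfr3-WT clones, at 66.3, 71.3, 77.6, 58.1 and 71.7 CPM in P28 and at 58.8, 58.6, 50.6 and 45.3 CPM in P4M. No cKO clone reached the lowest Fgfr3-WT clone. The change was -2.30 ± 0.34 (adjusted p = 0.000314) in P28 and -2.67 ± 0.38 (adjusted p = 0.000174) in P4M, that is 4.92-fold and 6.37-fold lower. Its element has 1 mismatch to the consensus.

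Zmat3, an RNA-binding zinc finger protein that restrains growth, stood at 98.5, 63.6, 46.4, 58.3 and 145 CPM in Fgfr3-WT, 39.8, 35.6, 34.01, 44.8 and 38.6 CPM in P28 and 33.5, 29.2, 25.1 and 26.3 CPM in P4M. The 3 groups did not overlap, although the test between P4M and P28 did not pass, at -0.43 (adjusted p = 0.334). Against Fgfr3-WT, Zmat3 changed by -1.09 ± 0.26 (adjusted p = 0.00485) in P28 and -1.53 ± 0.28 (adjusted p = 0.000858) in P4M. Btg2, an antiproliferative cofactor of mRNA deadenylation, stood at 5.15, 53.6, 39.7, 35.4 and 116 CPM in Fgfr3-WT, 6.86, 12.9, 11.1, 10.9 and 5.84 CPM in P28 and 3.58, 3.96, 8.61 and 7.104 CPM in P4M. Fgfr3-WT clone 1 was as low as the cKO clones, and the other 4 lay above them all. Its log2 fold change stood at -2.39 ± 0.58 (adjusted p = 0.00609) in P28 and -3.10 ± 0.66 (adjusted p = 0.00217) in P4M.

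The polo-like kinases Plk2 and Plk3, which control centriole duplication and the stress response of the cycle, went the other way. Plk2 stood at 29.4, 25.3, 48.7, 18.5 and 44.9 CPM in Fgfr3-WT, 131, 106, 207, 39.3 and 34.1 CPM in P28 and 21.8, 14.5, 42.2 and 26.9 CPM in P4M. In P28 clones 1 to 3 it was above each of the other clones of the series, whereas clones 4 and 5 lay within the Fgfr3-WT range, as did 3 of the 4 P4M clones. It rose in P28 by 1.64 ± 0.48 (adjusted p = 0.0167), was not called in P4M at -0.34 ± 0.50 (adjusted p = 0.609) and was lower in P4M than in P28, at -1.98 ± 0.53 (adjusted p = 0.04). The P28 call was lost without P28 clone 3 (adjusted p = 0.0544). The difference between the cKO groups was lost without P28 clone 1, 2 or 3 or P4M clone 1, 2 or 4, with an adjusted p of at most 0.111.

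Plk3 stood at 5.897, 2.296, 9.43, 6.29 and 2.097 CPM in Fgfr3-WT, 7.21, 14.4, 10.5, 14.7 and 12.7 CPM in P28 and 21.5, 9.06, 21.4 and 25.5 CPM in P4M. Fgfr3-WT clone 3 reached above the lowest clone of each cKO group, and the other Fgfr3-WT clones lay below all cKO clones. The rise was 1.19 ± 0.41 (adjusted p = 0.0344) in P28 and 1.90 ± 0.43 (adjusted p = 0.00346) in P4M. In P28 the call was lost without Fgfr3-WT clone 2 or 5 or P28 clone 2, 4 or 5, with an adjusted p of at most 0.0737, whereas in P4M it passed in each fit that left out 1 clone. All genes of its chromosome, 4, had a median log2 fold change of 0.41 in P28 and 0.47 in P4M, and relative to these Plk3 was at 0.78 and 1.43.

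The sestrins Sesn1 and Sesn2, which restrain the mTOR pathway when amino acids are short, had group ranges that overlapped. Sesn1 was 38.6 ± 19.4 CPM (SD, n = 5) in Fgfr3-WT, 39.2 ± 13.5 CPM (SD, n = 5) in P28 and 27.3 ± 6.38 CPM (SD, n = 4) in P4M, with log2 fold changes of 0.02 (adjusted p = 0.96) and -0.50 (adjusted p = 0.24). Sesn2 was 73.8 ± 29.3, 63.01 ± 31.4 and 102 ± 16.8 CPM, with log2 fold changes of -0.23 (adjusted p = 0.622) and 0.46 (adjusted p = 0.308). Gdf15, a secreted stress cytokine of the TGF-beta superfamily, varied more between clones of a group than any other member in Fgfr3-WT and in P28. It ranged from 0.0977 to 18.9 CPM in Fgfr3-WT, from 0.0478 to 6.003 CPM in P28 and from 3.39 to 71.4 CPM in P4M, so that neither -1.25 (adjusted p = 0.488) nor 2.02 (adjusted p = 0.258) passed.

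Of the 14 genes of apoptosis, 10 fell in P28 and 11 in P4M, 9 of them in both, and none of the 14 rose. The median log2 fold change was -1.51 in P28 and -1.66 in P4M. Among the receptors, Fas, the death receptor for Fas ligand, and Eda2r, a TNF receptor family member that binds ectodysplasin, had the largest decreases of all 36 members. Fas stood at 5.38, 41.4, 14.2, 33.6 and 83.7 CPM in Fgfr3-WT, 6.56, 3.83, 4.47, 3.32 and 1.64 CPM in P28 and 1.34, 1.12, 0.869 and 2.67 CPM in P4M. The P4M clones all lay below the lowest Fgfr3-WT clone, clone 1, and only P28 clone 1 lay above it. On the log2 scale it changed by -3.17 ± 0.64 (adjusted p = 0.00195) in P28 and -4.57 ± 0.75 (adjusted p = 0.000426) in P4M, that is 8.97-fold and 23.7-fold lower.

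Eda2r, on chromosome X, stood at 13.4, 22.6, 5.58, 27.3 and 64.2 CPM in Fgfr3-WT, 0.516, 0.430, 1.51, 0.242 and 0.384 CPM in P28 and 0.646, 1.05, 2.37 and 1.97 CPM in P4M. Each cKO clone lay below each Fgfr3-WT clone, and each was above the 0.0564 to 0.0769 CPM that a count of 0 would allow in these libraries (3 counts, counting error only). By the test it changed by -5.42 ± 0.74 (adjusted p = 0.00019) in P28 and -4.13 ± 0.77 (adjusted p = 0.000932) in P4M, that is 42.8-fold and 17.6-fold. All genes of chromosome X had a median of -0.32 in P28 and -0.49 in P4M.

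Tnfrsf10b, the mouse receptor for the death ligand TRAIL, separated the cKO groups. It stood at 29.4, 25.8, 36.3, 26.2 and 52.7 CPM in Fgfr3-WT, 39.3, 25.3, 24.2, 44.7 and 41.96 CPM in P28 and 18.1, 9.83, 8.79 and 18.2 CPM in P4M. The P28 and Fgfr3-WT clones overlapped, and each P4M clone lay below all of them. The log2 fold change against Fgfr3-WT was 0.04 ± 0.28 (adjusted p = 0.916) in P28 and -1.31 ± 0.30 (adjusted p = 0.00373) in P4M, and P4M against P28 it was -1.35 ± 0.31 (adjusted p = 0.0208). The last call was lost without P28 clone 1 or P4M clone 2 or 3, with an adjusted p of at most 0.0661.

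**Figure D4:**
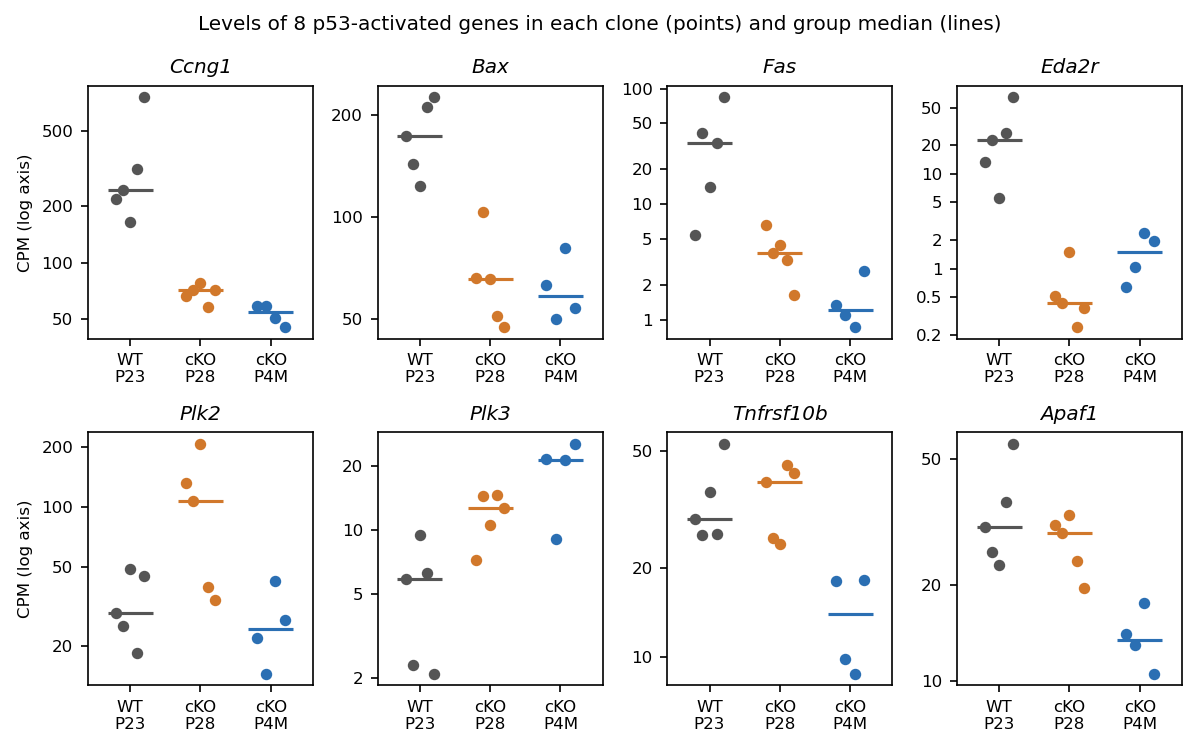
CPM (log axis) of 8 p53-activated genes in each clone (points) with the group median (lines) for Fgfr3-WT (P23), Fgfr3-p53 cKO (P28) and Fgfr3-p53 cKO (P4M). Ccng1, Bax and Eda2r show no overlap between genotypes, Plk2 is raised in 3 P28 clones, Plk3 is raised in both cKO groups, and Tnfrsf10b and Apaf1 are lower in each P4M clone than in each clone of the other groups.

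Of the genes acting at the mitochondria, Bax, the effector that opens the outer membrane, stood at 174, 144, 124, 211 and 226 CPM in Fgfr3-WT, 66.1, 104, 65.8, 51.1 and 47.5 CPM in P28 and 63.2, 50.001, 81.04 and 54.2 CPM in P4M. The genotypes did not overlap. Bax fell, at log2 fold changes of -1.39 ± 0.24 (adjusted p = 0.000674) in P28 and -1.50 ± 0.26 (adjusted p = 0.00052) in P4M. It lies on chromosome 7, where the median over all genes was -0.39 in P28 and -0.75 in P4M, and relative to these it was at -0.999 and -0.75. Bbc3, the BH3-only activator known as Puma, was 20.7 ± 7.19 CPM (SD, n = 5) in Fgfr3-WT, 8.404 ± 3.29 CPM (SD, n = 5) in P28 and 11.4 ± 3.82 CPM (SD, n = 4) in P4M. It fell in P28, at a log2 fold change of -1.30 ± 0.31 (adjusted p = 0.00544), and in P4M, at -0.86 ± 0.33 (adjusted p = 0.0482), but relative to the chromosome 7 median the P4M value was -0.10. The P4M call was also lost without any of Fgfr3-WT clones 1, 2, 4 and 5, P28 clones 1 and 3 and P4M clones 1, 3 and 4, with an adjusted p of at most 0.133.

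Pmaip1, the BH3-only protein Noxa, ranged from 1.499 to 28.5 CPM in Fgfr3-WT, from 1.25 to 3.61 CPM in P28 and from 3.75 to 12.00 CPM in P4M. Fgfr3-WT clones 1 and 3 lay within the P28 range. It fell in P28, at a log2 fold change of -2.25 ± 0.68 (adjusted p = 0.0192), a call lost without Fgfr3-WT clone 5 (adjusted p = 0.0555), and was not called in P4M at -0.51 ± 0.70 (adjusted p = 0.574). Each P4M clone lay above each P28 clone, although the test between them gave 1.74 (adjusted p = 0.137). Apaf1, the scaffold of the apoptosome, stood at 30.6, 25.6, 23.2, 36.6 and 55.8 CPM in Fgfr3-WT, 31.1, 29.3, 33.3, 23.9 and 19.6 CPM in P28 and 14.1, 12.9, 17.6 and 10.6 CPM in P4M. As with Tnfrsf10b, each P4M clone lay below all others. Apaf1 was not called in P28 at -0.32 ± 0.24 (adjusted p = 0.303), fell in P4M, at a log2 fold change of -1.32 ± 0.26 (adjusted p = 0.00143), and was lower in P4M than in P28, at -0.99 ± 0.26 (adjusted p = 0.0359). The last call was lost without any of P28 clones 1 to 4 and P4M clones 1, 2 and 4, with an adjusted p of at most 0.101.

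Pidd1, the death domain protein that activates caspase-2 in the PIDDosome, stood at 5.83, 9.99, 2.83, 5.78 and 25.5 CPM in Fgfr3-WT, 1.91, 3.94, 3.64, 3.04 and 3.59 CPM in P28 and 2.33, 1.87, 2.84 and 4.097 CPM in P4M. Fgfr3-WT clone 3 lay within the cKO range. The log2 fold change was -1.63 ± 0.49 (adjusted p = 0.0189) in P28, a call lost without Fgfr3-WT clone 5 (adjusted p = 0.0589), and -1.84 ± 0.54 (adjusted p = 0.0133) in P4M. Phlda3, which blocks Akt at the membrane, stood at 87.3, 173, 113, 156 and 379.8 CPM in Fgfr3-WT, 43.6, 25.3, 31.6, 26.3 and 23.1 CPM in P28 and 52.6, 77.1, 33.1 and 44.4 CPM in P4M. The genotypes did not overlap. Phlda3 fell, at log2 fold changes of -2.60 ± 0.38 (adjusted p = 0.00028) in P28 and -1.81 ± 0.40 (adjusted p = 0.00281) in P4M.

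Trp53inp1, a nuclear protein that acts with p53 in arrest and autophagy, stood at 37.99, 84.4, 60.3, 54.6 and 194 CPM in Fgfr3-WT, 30.1, 30.7, 21.9, 9.91 and 5.12 CPM in P28 and 8.07, 9.49, 16.2 and 9.21 CPM in P4M. All cKO clones lay below the Fgfr3-WT clones. The change was -2.14 ± 0.53 (adjusted p = 0.00637) in P28 and -3.00 ± 0.60 (adjusted p = 0.00144) in P4M. Triap1, a mitochondrial lipid carrier that protects from apoptosis, fell by less, from 23.2 ± 4.46 CPM (SD, n = 5) to 13.9 ± 4.53 CPM (SD, n = 5) in P28 and 14.6 ± 1.502 CPM (SD, n = 4) in P4M. The changes were -0.73 (adjusted p = 0.0161) and -0.67 (adjusted p = 0.0301). In P4M the call was lost without Fgfr3-WT clone 2, 3 or 5 or any of the P4M clones, with an adjusted p of at most 0.0966.

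Perp, a tetraspan membrane protein, and Ei24, an endoplasmic reticulum protein, were not called. Perp ranged from 0.647 to 22.4 CPM in Fgfr3-WT, from 0.201 to 21.9 CPM in P28 and from 0.0228 to 5.49 CPM in P4M, with 0.35 (adjusted p = 0.846) and -2.02 (adjusted p = 0.251). Ei24 was 61.6 ± 21.5 CPM (SD, n = 5) in Fgfr3-WT, 53.1 ± 2.91 CPM (SD, n = 5) in P28 and 47.4 ± 5.78 CPM (SD, n = 4) in P4M, with -0.21 (adjusted p = 0.437) and -0.38 (adjusted p = 0.177). Ei24 had the smallest spread of the members among the P28 clones, with an SD of log2 CPM of 0.08.

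Aen, a nuclease that degrades DNA in apoptosis, stood at 94.97, 109, 95.9, 127 and 215 CPM in Fgfr3-WT, 18.2, 33.6, 21.7, 28.9 and 32.2 CPM in P28 and 36.8, 0.0228, 27.4 and 30.3 CPM in P4M. Each cKO clone lay below each Fgfr3-WT clone, and P4M clone 2 held a single read of the gene (1 count), where every other clone of the series held at least 845 counts. Its log2 fold change stood at -2.25 ± 0.83 (adjusted p = 0.0449) in P28 and -2.44 ± 0.91 (adjusted p = 0.0413) in P4M, and the SE exceeded that of the other members with no overlap between genotypes. Without P4M clone 2 the log2 fold change was -2.25 in P28 (adjusted p = 0.00011) and -2.02 in P4M (adjusted p = 0.000588). With that clone kept, the P28 call passed in 1 further fit, without Fgfr3-WT clone 1, and the P4M call in 2, without that clone or P28 clone 1, and in the other fits that left out 1 clone the adjusted p was at most 0.0881 and 0.0751.

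The 2 nearest tested genes on each side of Aen on chromosome 7 that were well expressed in the other P4M clones were read in P4M clone 2. Tested genes with low levels in those clones were passed over. Among them was Acan, which lies between Isg20 and Mfge8 and ranged from 0.0198 to 3.10 CPM over the P4M clones. On the first side, Det1 was at 6.12 CPM there and at 4.98 to 6.23 CPM in the other P4M clones, and Mrps11 at 13.8 CPM against 9.64 to 15.3 CPM. On the other side, Isg20 was at 15.1 CPM against 15.3 to 19.4 CPM and Mfge8 at 469 CPM against 307 to 452 CPM. The lack of reads was thus seen at Aen and not at these neighbours. Klhl25, farther away, was at 14.9 CPM against 6.73 to 9.74 CPM. A gene with at most 1 count in 1 clone and at least 5 CPM in each of the others was found 8 times over the 14 clones, with Aen the only member among them and the only such gene in P4M clone 2. Whether the locus itself differs in that clone was not tested.

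**Figure D5:**
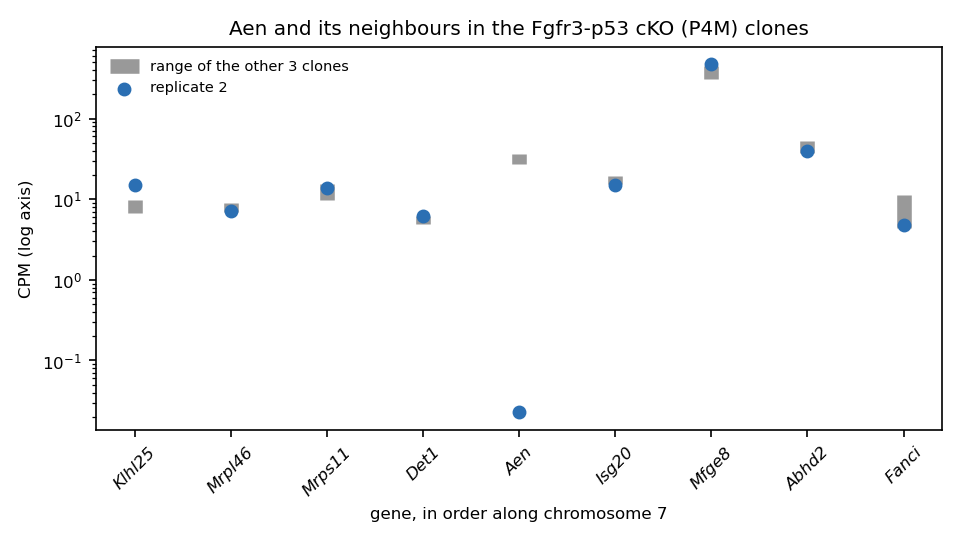
CPM (log axis) of Aen and its tested neighbours, in their order along chromosome 7, in P4M clone 2 (points) and the range of the other 3 Fgfr3-p53 cKO (P4M) clones (bars). Tested genes with low levels in the other clones are not shown. Aen lies at 0.0228 CPM in clone 2 and between 27.4 and 36.8 CPM in the others, while its neighbours in clone 2 lie in or near the range of the others.

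Of the 5 genes of DNA repair and nucleotide supply, 4 fell in P28 and 3 in P4M, with a median log2 fold change of -1.04 and -0.73. Polk, the translesion polymerase kappa, stood at 47.1, 36.4, 40.4, 25.2 and 90.9 CPM in Fgfr3-WT, 15.2, 17.4, 12.01, 24.1 and 21.3 CPM in P28 and 15.5, 13.1, 15.3 and 17.9 CPM in P4M. The highest cKO clone, P28 clone 4, lay just below the lowest Fgfr3-WT clone. Polk fell, at log2 fold changes of -1.42 ± 0.30 (adjusted p = 0.00258) in P28 and -1.63 ± 0.33 (adjusted p = 0.00143) in P4M. Ercc5, the endonuclease XPG of nucleotide excision repair, stood at 55.4, 54.1, 32.7, 43.1 and 106 CPM in Fgfr3-WT, 23.9, 22.3, 22.9, 20.5 and 17.2 CPM in P28 and 17.7, 23.6, 18.6 and 21.5 CPM in P4M. The genotypes did not overlap and the cKO clones were close together. On the log2 scale it changed by -1.45 ± 0.26 (adjusted p = 0.000857) in P28 and -1.52 ± 0.28 (adjusted p = 0.000818) in P4M.

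Xpc and Ddb2 recognise damage in the same pathway. Xpc was 33.5 ± 9.79 CPM (SD, n = 5) in Fgfr3-WT, 16.2 ± 2.22 CPM (SD, n = 5) in P28 and 20.1 ± 1.53 CPM (SD, n = 4) in P4M, and fell, at log2 fold changes of -1.04 (adjusted p = 0.00106) and -0.73 (adjusted p = 0.00981). Ddb2 was 12.2 ± 3.58, 8.76 ± 1.43 and 8.61 ± 1.72 CPM and was not called, at -0.48 (adjusted p = 0.098) and -0.50 (adjusted p = 0.093). Rrm2b, the p53-inducible subunit of ribonucleotide reductase, was 31.1 ± 12.9 CPM (SD, n = 5) in Fgfr3-WT, 16.3 ± 5.02 CPM (SD, n = 5) in P28 and 19.1 ± 4.26 CPM (SD, n = 4) in P4M. It fell in P28, at a log2 fold change of -0.94 (adjusted p = 0.0196), and was not called in P4M at -0.71 (adjusted p = 0.0733), with a difference between the cKO groups of 0.23 (adjusted p = 0.671).

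Of the 9 genes of metabolism, transport and signalling, 5 fell in P28 and 5 in P4M, with a median of -1.25 and -1.07. Dcxr, a reductase of dicarbonyls and xylulose, stood at 11.7, 35.7, 18.6, 41.6 and 97.8 CPM in Fgfr3-WT, 8.41, 5.09, 6.44, 3.102 and 3.71 CPM in P28 and 3.83, 5.19, 7.29 and 6.88 CPM in P4M. All cKO clones lay below the Fgfr3-WT clones, which spanned 8.38-fold among themselves. Dcxr fell, at log2 fold changes of -2.94 ± 0.51 (adjusted p = 0.000813) in P28 and -2.82 ± 0.56 (adjusted p = 0.00136) in P4M. Slc19a2, a thiamine transporter, stood at 46.3, 31.2, 27.99, 32.4 and 80.1 CPM in Fgfr3-WT, 10.5, 14.03, 9.64, 5.500 and 7.92 CPM in P28 and 18.99, 13.3, 18.03 and 14.96 CPM in P4M. Here too the genotypes did not overlap. By the test it changed by -2.19 ± 0.31 (adjusted p = 0.000238) in P28 and -1.42 ± 0.33 (adjusted p = 0.00385) in P4M.

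Ak1, a cytosolic adenylate kinase, stood at 113, 193, 92.3, 122 and 481 CPM in Fgfr3-WT, 71.96, 59.6, 59.4, 114 and 79.8 CPM in P28 and 72.03, 70.8, 48.03 and 64.8 CPM in P4M. P28 clone 4 lay among the Fgfr3-WT clones and the P4M clones lay below them. Ak1 fell, at log2 fold changes of -1.38 ± 0.40 (adjusted p = 0.0155) in P28 and -1.65 ± 0.44 (adjusted p = 0.00801) in P4M. Rps27l, a paralogue of the ribosomal protein Rps27, had the highest level per length of the members, with a median of 556 TPM in Fgfr3-WT, 407 TPM in P28 and 383 TPM in P4M. Its log2 fold change was small, -0.92 (adjusted p = 0.0106) in P28 and -0.83 (adjusted p = 0.0214) in P4M, and Fgfr3-WT clone 1 at 52.03 CPM lay within the cKO range of 51.9 to 72.8 CPM in P28. The P4M call was lost without Fgfr3-WT clone 5 or P4M clone 3 or 4, with an adjusted p of at most 0.0662.

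Pltp, which transfers phospholipids between lipoproteins, fell in P28 and was not called in P4M. It ranged from 113 to 518 CPM in Fgfr3-WT, from 76.7 to 171 CPM in P28 and from 98.6 to 449 CPM in P4M, at -1.25 (adjusted p = 0.0406) and -0.13 (adjusted p = 0.834), and the difference between the cKO groups was not called at 1.11 (adjusted p = 0.152). The P28 call was lost without Fgfr3-WT clone 1, 2 or 5 or P28 clone 2, 3 or 5, with an adjusted p of at most 0.106. Rap2b, a small GTPase of the Ras family, was not called in P28 at -0.62 (adjusted p = 0.1) and fell in P4M, at a log2 fold change of -1.07 (adjusted p = 0.0122), and its P4M and P28 levels of 13.2 ± 3.39 (SD, n = 4) and 18.1 ± 5.37 CPM (SD, n = 5) were not called different, at -0.45 (adjusted p = 0.37).

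The remaining 3 of these genes were not called. Fdxr, the mitochondrial ferredoxin reductase, was at 21.01 ± 2.45 CPM (SD, n = 5) in Fgfr3-WT, 16.1 ± 5.53 CPM (SD, n = 5) in P28 and 15.2 ± 1.84 CPM (SD, n = 4) in P4M, at -0.39 (adjusted p = 0.155) and -0.47 (adjusted p = 0.0995). Each P4M clone lay below each Fgfr3-WT clone for Fdxr. Abhd4, a lipase of N-acyl phospholipids, was at 87.4 ± 41.96, 81.3 ± 13.1 and 80.4 ± 22.4 CPM, at -0.10 (adjusted p = 0.8) and -0.12 (adjusted p = 0.769). Sulf2, an extracellular sulfatase of heparan sulfate, ranged from 51.6 to 684 CPM in Fgfr3-WT, from 3.36 to 216 CPM in P28 and from 19.98 to 146 CPM in P4M, at -1.59 (adjusted p = 0.231) and -2.37 (adjusted p = 0.102).

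In total 9 members were called in neither comparison with Fgfr3-WT as lower or higher (Sesn1, Sesn2, Gdf15, Perp, Ei24, Ddb2, Fdxr, Sulf2 and Abhd4). The SE of the P28 log2 fold change was 0.21 for Ei24 and Fdxr, 0.22 for Ddb2, 0.29 for Abhd4, 0.31 for Sesn1 and 0.34 for Sesn2, whereas it was 1.01 for Sulf2, 1.23 for Perp and 1.34 for Gdf15, in which clones of 1 group differed by more than the groups did. In P4M, Sulf2 was called by DESeq2 at a log2 fold change of -2.33 (adjusted p = 0.0392) and by edgeR without P4M clone 3 at -3.72 (adjusted p = 0.0314), and Fdxr was called in a fit of only the groups compared at -0.47 (adjusted p = 0.043). Ei24 was called in P4M without Fgfr3-WT clone 3 at -0.51 (adjusted p = 0.0496), and Fdxr in P28 without P28 clone 5 at -0.60 (adjusted p = 0.0282). A p that misses the threshold does not show that these genes were equal in the 3 groups.

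The decreases were then set against the chromosome of each gene, since all genes of a chromosome had medians between -0.39 and 0.41 in P28 and between -0.75 and 0.47 in P4M. Relative to its chromosome, 31 of the 36 members were lower in P28 and 34 in P4M, with a median over the members of -1.23 and -0.99. Chromosome 7, with 4 members, had the lowest median in both groups, and relative to it in P4M Pidd1 was at -1.09 and Aen at -1.69. No test was made of these differences.

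Of 21 other p53 targets that are not members, 20 passed the filter, and 10 of these fell in P28 and 7 in P4M, while 2 and 3 rose. Of all genes tested, 19.7% fell in P28 and 23.6% in P4M, while 19.2% and 22.3% rose. The median log2 fold change of these other targets was -1.24 in P28 and -0.51 in P4M. Those that fell in both cKO groups were Mdm2, Ephx1, Trp53cor1, Psrc1, Steap3 and Tgfa. Epha2 rose in both, at 1.43 (adjusted p = 0.0366) in P28 and 2.35 (adjusted p = 0.00326) in P4M. Aldh4a1 rose in P28, at 1.32 (adjusted p = 0.00826). Ppm1d and Ckap2 rose in P4M, at 0.82 (adjusted p = 0.0026) and 1.65 (adjusted p = 0.0404). Mdm2 stood at 266, 139, 149, 235 and 333 CPM in Fgfr3-WT, 46.8, 50.3, 47.1, 55.6 and 58.7 CPM in P28 and 67.5, 59.8, 89.7 and 71.4 CPM in P4M, and each cKO clone lay below each Fgfr3-WT clone. It fell, at log2 fold changes of -2.12 ± 0.23 (adjusted p = 4.11e-05) and -1.64 ± 0.24 (adjusted p = 0.000211). Cdkn1a, the CDK inhibitor p21 and the best known target, stood at 291, 198, 174, 243 and 331 CPM in Fgfr3-WT, 35.3, 58.7, 47.1, 12.9 and 21.9 CPM in P28 and 154, 265, 96.3 and 165 CPM in P4M. It was low in each P28 clone, whereas the P4M clones overlapped with the Fgfr3-WT clones. The log2 fold change was -2.81 ± 0.40 (adjusted p = 0.000223) in P28 and -0.54 ± 0.40 (adjusted p = 0.281) in P4M, and P4M against P28 it was 2.27 ± 0.40 (adjusted p = 0.00895). Between the cKO groups, 3 of the 20 were higher in P4M and 1 was lower, where 3.34% and 3.88% of all genes were.

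Of 12 regulators of p53, 11 passed the filter, and 2 fell and 2 rose in P28, and 1 fell and 2 rose in P4M. Of all genes tested, 19.7% fell and 19.2% rose in P28, and 23.6% fell and 22.3% rose in P4M. The median log2 fold change of the regulators was 0.22 in P28 and 0.16 in P4M. Mdm4, the partner of Mdm2 that masks the activation domain of p53, fell in both, at -1.38 (adjusted p = 0.000638) in P28 and -1.16 (adjusted p = 0.00231) in P4M. Atr fell in P28 only, at -0.38 (adjusted p = 0.0272). Chek1 rose in both, at 1.76 (adjusted p = 0.000701) and 1.60 (adjusted p = 0.00121). Cdkn2a rose in P28, at 2.12 (adjusted p = 0.0101), and Cop1 in P4M, at 0.46 (adjusted p = 0.00914). Over the members, the other targets and the regulators, a decrease in both groups was thus seen in 19 of 36, 6 of 20 and 1 of 11 genes, whereas 14.7% of all genes tested fell in both.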

How the data were processed

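Bulk RNA-seq of 14 cultured clones was used, from the tables that the authors deposited. RNA was extracted with PicoPure, cDNA was made by SMART-Seq v4 and libraries by Nextera XT, and single-end reads were sequenced on an Illumina NovaSeq instrument. By the paper's methods and the submitters' notes, FastQC, TopHat and Bowtie2 (mm10), HTSeq and DESeq2 were used, with versions not given in the sources used here. The counts deposited by the authors are whole, unnormalized numbers of non-ambiguously mapped reads per gene. The TPM values deposited by the authors are scaled by gene length and depth, and served for levels between genes and an alternative test. The deposited FPKM, expected count, rlog and depth-normalized tables were not used.

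The filterByExpr rule, given the 3 groups, kept 17358 of 30503 genes. Counts were scaled by TMM and a robust quasi-likelihood model without intercept was fitted to all 14 clones with edgeR 4.0.16 in R 4.3.3, as an alternative to the DESeq2 of the study. P values were adjusted by Benjamini-Hochberg over all genes tested, with calls made at an FDR of 0.05. The steps were tested on simulated data. The SE is the absolute log2 fold change over the square root of F. CPM were computed from the TMM-scaled library size, and log2 CPM, with a prior count of 2, served for spreads and medians by clone. A count of 0 allows up to 3 counts, by counting error only, since reads without molecular identifiers are not independent molecules. Alternatives were DESeq2 1.42.0, RLE scaling, no scaling, no filter, at least 10 counts in every clone, only the groups compared, calls of 1 or more on the absolute log2 scale, limma 3.58.1 on log2(TPM + 1) and leaving out each clone. Of 26 pairs of clones within groups, 0 held identical counts. Each number in the sample names (1303 or 2963) went with 1 genotype, so no term for it could be fitted. Each age at isolation went with 1 group, so no term for age could be fitted either.

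The members and lists were chosen with earlier results of these data known. All 36 members are named, with per-clone values for those that fell in both cKO groups by 1 or more on the log2 scale, those called in 1 comparison with the cKO groups differing, and those that rose. Coordinates are those of GENCODE M21, the promoter sequences those of RefSeq (GRCm38.p6), read with Python 3.11.15 and pandas 2.3.3. No genome sequence was used.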

Additional observations from a re-analysis of the deposited data

Results flagged for a closer look

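In 3 members the P4M and P28 clones differed by the direct test. The log2 fold change of P4M against P28 was -1.98 for Plk2, -1.35 for Tnfrsf10b and -0.99 for Apaf1, each lost on leaving out some single clones.

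In 4 of the 108 sets of values (36 members in 3 groups) 1 clone lay far from the rest of its group by Dixon's criterion, which chance alone meets in about 1 of 20 groups. Of these, 1 was in Fgfr3-WT (P23), 0 in P28 and 3 in P4M. Aen was at 0.0228 CPM in P4M clone 2, where the other P4M clones had 27.4 to 36.8 CPM. Plk3 was at 9.06 CPM in the same clone, with the others at 21.4 to 25.5 CPM. Sulf2 was at 146 CPM in P4M clone 3, with the others at 19.98 to 20.6 CPM. Bbc3 was at 33.4 CPM in Fgfr3-WT clone 5, with the others at 16.5 to 18.8 CPM.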

How the results depend on the processing

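No paired analysis was possible because the replicate numbers of the clones are running numbers that pair nothing across groups. Of the 22 members that fell in P28, 14 were called by limma on log2(TPM + 1), where 1938 of 17358 genes fell. The calls lost were those of Zmat3, Pmaip1, Pidd1, Aen, Triap1, Rrm2b, Pltp and Rps27l. In P4M 19 members fell by limma, where 3120 genes did, and Pidd1, Triap1 and Rps27l were lost. By limma the median of all genes was higher by 0.22 in P28, by 0.11 in P4M and lower by 0.13 for P4M against P28. There 27.4% of the calls of all genes in P28 were decreases, against 50.6% here. Without scaling beyond the total count this share was 43.0% in P28, and between the cKO groups it was 66.8%, against 53.7% here and 76.1% by limma. In a fit of only the groups compared, 1 member rose in P28, where 2511 of 16102 genes did. In that setting 1 (Pmaip1) was higher in P4M than in P28, where 1459 of 16672 genes were. Without a filter, 1 member was lower in P4M than in P28, where 449 of 29900 genes were. The other alternatives kept these counts within 1.5 times. Leaving out 1 clone at a time gave 18 to 22 members lower in P28, 1 to 2 higher in P28, 18 to 21 lower in P4M and 0 to 3 lower in P4M than in P28. Over all genes, in fits of 17077 to 17751 genes, 3005 to 3755 were lower and 2800 to 3498 higher in P28. In the same fits, 3374 to 4294 genes were lower in P4M and 215 to 1094 were lower in P4M than in P28.

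No called value of a member changed sign. Of the uncalled, by limma on log2(TPM + 1) the log2 difference in P28 was 0.14 for Apaf1, 0.11 for Ei24 and 0.21 for Abhd4, in P4M it was 0.0003 for Pmaip1, and in P4M against P28 it was -0.0697 for Triap1, -0.0359 for Dcxr and -0.10 for Rps27l. In P4M against P28, Triap1 was at -0.0079 without scaling, Ddb2 at 0.0086 and Abhd4 at 0.0194 without a filter, and Abhd4 at 0.001 by DESeq2. Leaving out 1 clone at a time, the P28 values ranged from -0.13 to 0.35 for Sesn1, -0.51 to 0.0446 for Sesn2, -0.32 to 1.4997 for Perp, -0.0811 to 0.25 for Tnfrsf10b and -0.28 to 0.18 for Abhd4. The P4M values ranged from -0.81 to 0.0825 for Pmaip1, -0.50 to 0.17 for Pltp and -0.28 to 0.17 for Abhd4. For P4M against P28 they ranged from -0.26 to 0.13 for Bax, -0.47 to 0.23 for Aen, -0.0203 to 0.25 for Triap1, -0.14 to 0.0894 for Ddb2, -0.14 to 0.0211 for Ercc5, -0.011 to 0.35 for Dcxr, -0.18 to 0.13 for Fdxr and -0.13 to 0.15 for Abhd4. The cause of these shifts was not tested. The numbering of the samples by genotype, the single clone origin and the depth of 25688946 counts or more set the limits of these values. Age at isolation and time in culture, which went with genotype, limit the comparisons with Fgfr3-WT too. The P4M value of Sulf2 was -2.33 and called by DESeq2, and -3.72 and called without P4M clone 3.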

Other observations

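Some further targets of p53 outside the members fell in both cKO groups, while Epha2, Aldh4a1, Ppm1d and Ckap2 rose in either group, as given above. Ephx1, a microsomal epoxide hydrolase, was at 826 ± 306 CPM (SD, n = 5) in Fgfr3-WT, 63.00 ± 14.05 CPM (SD, n = 5) in P28 and 55.1 ± 66.1 CPM (SD, n = 4) in P4M, at log2 fold changes of -3.71 (adjusted p = 0.000416) and -3.91 (adjusted p = 0.000435). Tgfa, a ligand of the EGF receptor, was at 32.99 ± 16.7, 1.06 ± 0.386 and 4.303 ± 3.598 CPM, at -4.95 (adjusted p = 0.000124) and -2.94 (adjusted p = 0.00235). Steap3, a ferrireductase, was at 325 ± 168, 49.1 ± 22.2 and 31.97 ± 12.03 CPM, at -2.73 (adjusted p = 0.000242) and -3.34 (adjusted p = 0.000111). For Ephx1, Tgfa, Steap3, Mdm2 and Trp53cor1 each cKO clone lay below each Fgfr3-WT clone. That was 5 of the 20 other targets tested, whereas it was so for 8.38% of all genes tested. Psrc1, a microtubule-associated protein, had -4.00 (adjusted p = 0.00248) and -3.59 (adjusted p = 0.00591), and Trp53cor1, the long noncoding RNA lincRNA-p21, had -1.95 (adjusted p = 0.0187) and -3.23 (adjusted p = 0.00204).

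On the per-length scale of TPM, the members differed widely in level. In Fgfr3-WT the highest group medians were those of Rps27l (556 TPM), Bax (365 TPM), Pltp (212 TPM) and Phlda3 (153 TPM), and the lowest were those of Gdf15 (1.13 TPM), Pidd1 (3.02 TPM), Perp (3.05 TPM) and Plk3 (3.38 TPM). In P28 the median of Eda2r was 0.19 TPM, where it had been 8.10 TPM in Fgfr3-WT, and in P4M that of Fas was 1.51 TPM, where it had been 32.03 TPM.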
